A study of Mus musculus with 16 samples.

Results

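The 34 genes described here are the enzymes of glycolysis from glucose uptake to lactate, the enzymes that set its rate and the entry of pyruvate into the mitochondrion, and genes that cells typically induce at low oxygen. Members were picked by gene symbol from their known roles, by a rule that uses no measured value but was set with earlier results of these data known, and all 34 were found among the 22206 transcript clusters of a Clariom S mouse array, a 1-colour array that gives 1 log2 signal for each gene. Where a symbol had several clusters, the one with the highest mean signal was taken, which applied to Egln3 alone. The cells were primary fibroblasts grown from tail skin of 6 to 8 week old mice with mucopolysaccharidosis type I (MPS I), a lysosomal storage disease in which the enzyme encoded by Idua is missing. All arrays, controls included, are of MPS I cells, and neither the allele, the strain nor the number of mice is given in the sources used here. The cells received for 24 h 60 or 120 µM genistein (G), 60 or 120 µM kaempferol (K), or 60 or 120 µM in total of a 1:1 mixture, which holds 30 or 60 µM of each compound. The controls received 0.05% or 0.1% dimethyl sulfoxide (DMSO), the solvent. Each of the 8 groups has 2 arrays, named as biological replicates in the labels, with nothing said of separate animals or cultures, so p-values measure the spread between these samples only.

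Glycolysis splits glucose into pyruvate in a chain of cytosolic enzymes, and lactate dehydrogenase turns pyruvate into lactate when it is not burnt in mitochondria. Pyruvate dehydrogenase kinases block the mitochondrial route by phosphorylating the pyruvate dehydrogenase complex. When oxygen is low, hypoxia-inducible factors (HIF) escape destruction and bind short DNA elements near many of these genes, which raises most glycolytic transcripts together with genes for blood vessel growth, collagen hydroxylation and mitophagy.

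Array medians lay between 6.54 and 6.63 on the log2 scale, and arrays of 1 group correlated with r of 0.995 to 0.997. Signals of the 5222 negative control probe sets had medians of 6.47 to 6.83 and 95th percentiles of 10.4 to 10.8 per array. A gene was called not well above background in a group if both arrays lay at or below their negative control median, a criterion set with the values in view. Of the 34 genes, 26 lay above that median on every array and 15 above the 95th percentile on every array, while Slc2a3, Aldoc and Pgam2 were not well above background in any group, Car9 in 7 groups, Ankrd37 in 6, and Egln3 and Eno3 in 2 each. Of 10 fibroblast markers 9 lay above the negative control median in every group. None of 7 keratinocyte, 5 endothelial and 5 Schwann cell markers did. Of 5 melanocyte markers only Mlana did, with signals of 7.59 to 9.33, and it fell with 120 µM G. Idua gave signals between 7.43 and 8.03 and was called in 0 of 6 treatments. In these bulk samples, fewer cells of a type and less RNA per cell cannot be told apart.

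G and K each lowered more of the 34 genes than they raised. In reference to 0.05% DMSO, 60 µM G raised 2 genes (against 3.84% of all clusters) and lowered 10 (against 4.48%), and 120 µM G raised 3 (against 7.94%) and lowered 11 (against 7.8%), at an adjusted p under 0.05 in limma's test over all clusters. With 60 µM K 4 genes rose (against 5.72%) and 8 fell (against 4.4%), and with 120 µM K 4 rose (against 8.98%) and 11 fell (against 8%). In reference to 0.1% DMSO, the 60 µM mixture raised 4 (against 9.23%) and lowered 9 (against 8.57%), and the 120 µM mixture raised 3 (against 10.1%) and lowered 10 (against 9.48%). In either direction, 12 genes passed with 60 µM G (against 8.32%), 14 with 120 µM G (against 15.7%), 12 with 60 µM K (against 10.1%), 15 with 120 µM K (against 17%), and 13 with each mixture (against 17.8% and 19.6%). The share of the 34 genes that fell was 23.5% to 32.4%, and the share that rose 5.88% to 11.8%. The median log2 fold change of the 34 genes was -0.23, -0.11, -0.20, -0.30, -0.19 and -0.25 in these 6 treatments, where that of all clusters lay between -0.04 and 0.01. The 4 single-compound comparisons share the same 0.05% DMSO arrays, and both mixtures share the 0.1% DMSO arrays, so the counts of different treatments are not independent.

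Across the 6 treatments, 6 genes fell in every one (Tpi1, Pgk1, Eno1, Eno3, Ldha and Ndrg1, against 1.25% of all clusters) and 2 rose in every one (Ldhb and Pdk4, against 1.47%). Another 11 genes fell in some treatments and rose in none (against 16.3%), and Eno2 and Vegfa rose in some and fell in none (against 15.3%). Pfkfb3 passed in both directions (against 0.923%), and 12 genes passed in none (against 64.7%). On 9 genes (Hk1, Pfkp, Tpi1, Pgk1, Eno1, Eno3, Pkm, Ldha and Ndrg1) all 12 treated arrays lay below all 4 DMSO arrays, which held for 4.57% of all clusters. On 3 genes (Gpi1, Ldhb and Pdk4) all treated arrays lay above, against 5.12% of all clusters. For Gpi1 this was nearly a tie, with 14.6036 as the lowest treated and 14.6034 as the highest DMSO signal. Fibroblast markers moved in some of the same comparisons: none of 10 fell with 60 µM G, but 6 (Col1a1, Col3a1, Pdgfra, Pdgfrb, Thy1 and Vim) fell with 120 µM G. With 60 µM K Vim fell and Pdgfra rose, with 120 µM K Col3a1, Thy1 and Vim fell, and with each mixture Pdgfrb, Thy1 and Vim fell. The log2 of the summed signal of the 10 markers was 19.2 to 19.3 in the DMSO arrays and 18.8 to 19.1 in the treated arrays. Of 6 macrophage markers only Cd68, also a lysosomal gene of other cells, and Lyz2 reached above the negative control median, and the log2 of the summed signal was 9.53 to 9.80 with DMSO, 11.6 to 11.7 with 120 µM G and 9.23 to 10.7 in the other treatments. Of 5 adipocyte markers only Fabp4 did, it fell in all 6 treatments, and the log2 of the summed signal was 9.79 to 9.93 with DMSO and 7.44 to 9.09 after treatment. Ptprc, Csf1r, Adipoq and Plin1, the defining markers of both, lay below that median on all 16 arrays. The part of these marker changes in the changes of the 34 genes was not tested.

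**Figure D1:**
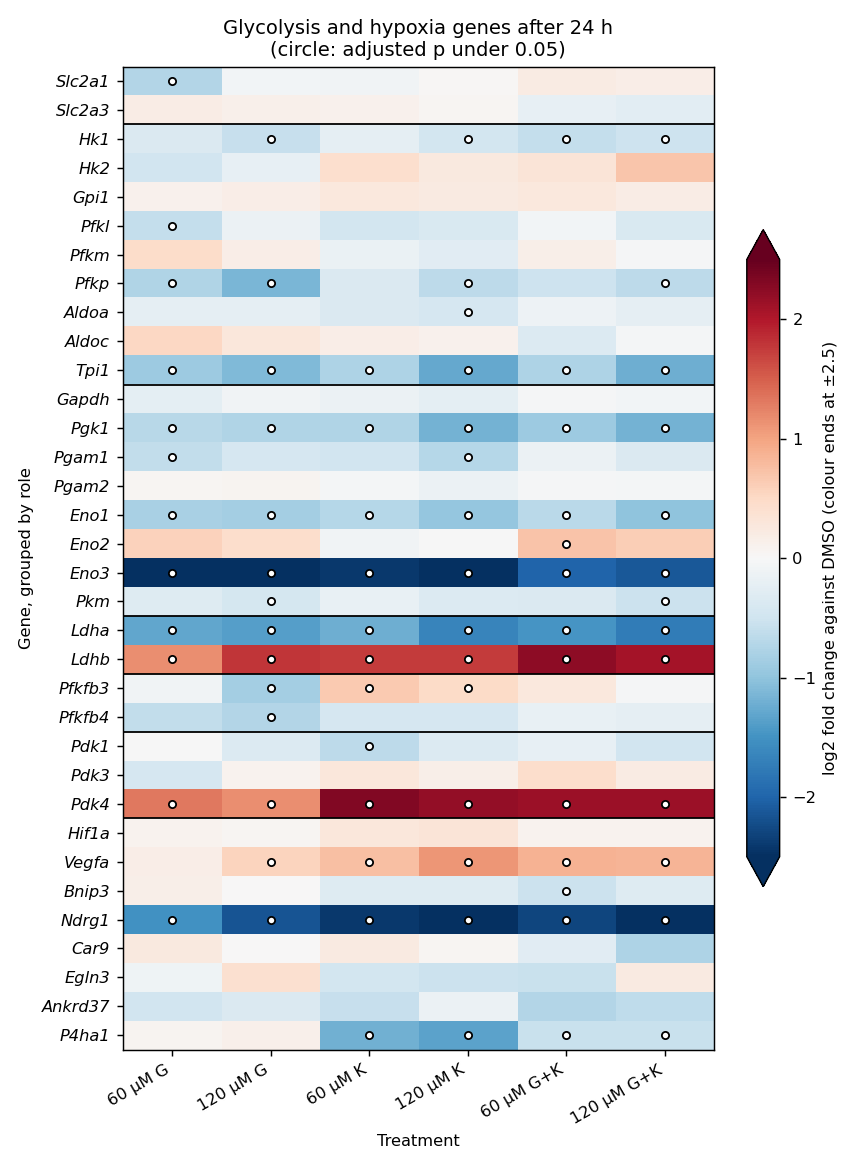
Log2 fold change of the 34 genes (rows, with lines between the role groups) against DMSO in the 6 treatments (columns), where circles mark an adjusted p under 0.05 in limma's test with n = 2 arrays per group. Ldhb and Pdk4 are red and Tpi1, Pgk1, Eno1, Eno3, Ldha and Ndrg1 blue in all 6 columns.

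The 250 bases before the annotated starts of the genes were read from the RefSeq promoter table of the mouse build GRCm38.p6, which had windows for 32 of the 34 genes. The HIF binding core was searched as ACGTG and GCGTG on both strands, with overlapping matches (as in CACGTG, which holds ACGTG on each strand) merged. At least 1 window of 28 genes (87.5% of 32) held a match, as did 36 of their 46 windows (78.3%), where 38.6% of all 32851 windows and 41.5% of all 27025 genes in the table had 1. Eno2, Gpi1, Pgam2 and Tpi1 had no match, and 5 genes had the palindrome CACGTG, which 6.02% of all windows held. A match is only a run of letters, and binding was not measured. The windows of Ldha, Pgk1, Ldhb and P4ha1 are shown because Ldha and Pgk1 fell in all 6 treatments, Ldhb rose in all 6, and P4ha1 fell with K and not with G. Each is written 5′ to 3′ on the gene's strand and ends at the base before the start, with the matches in capitals.
Ldha, first start, chr7:46845554-46845803, plus strand: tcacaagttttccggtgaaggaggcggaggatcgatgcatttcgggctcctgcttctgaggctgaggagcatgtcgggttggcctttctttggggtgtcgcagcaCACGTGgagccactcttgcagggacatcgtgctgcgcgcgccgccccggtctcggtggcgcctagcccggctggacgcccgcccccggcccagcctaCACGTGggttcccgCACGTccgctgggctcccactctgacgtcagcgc
Ldha, second start, chr7:46846832-46847081, plus strand: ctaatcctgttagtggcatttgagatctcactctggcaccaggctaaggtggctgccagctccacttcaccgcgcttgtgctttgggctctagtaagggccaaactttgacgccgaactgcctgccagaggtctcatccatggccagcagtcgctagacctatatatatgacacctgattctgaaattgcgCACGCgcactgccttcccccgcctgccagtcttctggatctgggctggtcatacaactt
Pgk1, chrX:106186850-106187099, plus strand: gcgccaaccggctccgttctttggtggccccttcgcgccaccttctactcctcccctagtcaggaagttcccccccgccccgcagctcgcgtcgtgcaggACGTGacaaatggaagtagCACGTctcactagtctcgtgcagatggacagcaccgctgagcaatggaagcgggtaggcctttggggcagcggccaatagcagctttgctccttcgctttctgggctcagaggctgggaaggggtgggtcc
Ldhb, chr6:142507958-142508207, minus strand: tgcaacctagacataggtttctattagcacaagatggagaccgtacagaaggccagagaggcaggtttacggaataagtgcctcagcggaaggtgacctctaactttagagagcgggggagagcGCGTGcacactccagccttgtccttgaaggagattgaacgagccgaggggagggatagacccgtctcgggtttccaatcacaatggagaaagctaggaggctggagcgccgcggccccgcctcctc
P4ha1, chr10:59323046-59323295, plus strand: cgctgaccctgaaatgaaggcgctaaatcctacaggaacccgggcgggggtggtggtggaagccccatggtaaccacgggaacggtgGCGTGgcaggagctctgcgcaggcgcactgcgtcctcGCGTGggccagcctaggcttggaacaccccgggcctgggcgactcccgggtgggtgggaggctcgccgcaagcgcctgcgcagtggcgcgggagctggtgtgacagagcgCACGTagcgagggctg
The 3 matches before the first start of Ldha begin 145, 48 and 34 bases upstream, and the single one before its second start 59 bases upstream. The matches of Pgk1 begin 150 and 131 bases upstream, that of Ldhb 126 bases upstream, and those of P4ha1 163, 126 and 16 bases upstream. Both the genes that fell and those that rose thus held matches, and Tpi1, which also fell in all 6 treatments, held none.

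Of the 2 glucose transporters and 9 enzymes from hexokinase to triose phosphate isomerase, 6 genes fell in at least 1 treatment (against 18.5% of all clusters) and none rose in any (against 17.7%). Tpi1, which interconverts the triose phosphates, gave signals of 14.67 and 14.71 with 0.05% DMSO and 14.73 and 14.53 with 0.1% DMSO. After treatment the signals were 13.96 and 13.59 with 60 µM G, 13.70 and 13.47 with 120 µM G, 13.92 and 13.90 with 60 µM K, 13.55 and 13.28 with 120 µM K, 13.73 and 13.98 with the 60 µM mixture and 13.36 and 13.45 with the 120 µM mixture. All 12 treated arrays lay below the lowest DMSO array. The log2 fold change was -0.91 ± 0.16 (SE) with 60 µM G, -1.10 ± 0.16 with 120 µM G, -0.78 ± 0.16 with 60 µM K, -1.27 ± 0.16 with 120 µM K, -0.77 ± 0.16 with the 60 µM mixture and -1.23 ± 0.16 with the 120 µM mixture, which left 0.414 to 0.584 of the control level. The adjusted p lay between 1.00e-04 and 0.00724.

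Pfkp, the platelet form of phosphofructokinase, the main control point of glycolysis, fell with G at both doses. Its signals were 10.72 and 10.88 with 0.05% DMSO and 10.86 and 10.65 with 0.1% DMSO, and 9.96 and 10.13 with 60 µM G and 9.85 and 9.47 with 120 µM G, so that the arrays did not overlap. Its log2 fold change was -0.76 ± 0.17 (adjusted p 0.0159) and -1.14 ± 0.17 (adjusted p 4.06e-04). K lowered it at 120 µM only (-0.66 ± 0.17, adjusted p 0.0167), as did the mixture (-0.66 ± 0.17, adjusted p 0.0165). The liver form Pfkl passed with 60 µM G alone, at 10.24 and 10.45 against 11.12 and 10.78 (-0.60 ± 0.16, adjusted p 0.0350), and the muscle form Pfkm in no treatment against DMSO. Hk1, the hexokinase of most tissues, which traps glucose as its phosphate, fell with 120 µM G (-0.58 ± 0.14, adjusted p 0.00966), 120 µM K (-0.46 ± 0.14, adjusted p 0.0337) and both mixtures (-0.59 ± 0.14 and -0.51 ± 0.14, adjusted p 0.00886 and 0.0179). Its signals were 13.52 to 13.72 with DMSO and 12.96 to 13.38 after treatment, with no overlap. The log2 fold change was -0.37 with 60 µM G and -0.22 with 60 µM K, where it did not pass.

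Slc2a1, the basal glucose transporter, stood lower with 60 µM G alone, at 11.99 and 12.21 against 12.78 and 12.90 (-0.73 ± 0.18, adjusted p 0.0234). In the other treatments its log2 fold change lay between -0.08 and 0.21. Aldoa, the main aldolase, fell with 120 µM K only (-0.43 ± 0.13, adjusted p 0.0331). Gpi1, the isomerase that follows hexokinase, did not pass, with log2 fold changes of 0.10 to 0.26. Every treated array lay above every DMSO array, but the lowest treated only just (14.6036 against 14.6034). Hk2, the inducible hexokinase, came nearest to the threshold with the 120 µM mixture, at 0.70 ± 0.23 with an adjusted p of 0.0508. Among these calls, those of Tpi1 with G at both doses, 120 µM K and the 120 µM mixture and that of Pfkp with 120 µM G held when each of the 16 arrays was left out in turn. The other calls were lost without 1 array, where the highest adjusted p was 0.136 for Slc2a1, 0.226 for Pfkl, 0.207 for Aldoa, 0.116, 0.177 and 0.0954 for Pfkp with 60 µM G, 120 µM K and the 120 µM mixture, 0.0796, 0.269, 0.0688 and 0.115 for the calls of Hk1 in the order given above (120 µM G, then K, then the mixtures), 0.0528 for Tpi1 with 60 µM K and 0.0620 for Tpi1 with the 60 µM mixture.

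In lower glycolysis 3 of 8 enzymes fell in all 6 treatments, as did 1.25% of all clusters. Pgk1, phosphoglycerate kinase, which makes the first adenosine triphosphate of the pathway, gave signals of 13.86 and 13.90 with 0.05% DMSO and 14.04 and 13.99 with 0.1% DMSO. After treatment the signals were 13.13 and 13.23 with 60 µM G, 13.16 and 13.09 with 120 µM G, 13.13 and 13.11 with 60 µM K, 12.54 and 12.85 with 120 µM K, 13.05 and 13.17 with the 60 µM mixture and 12.81 and 12.88 with the 120 µM mixture. The DMSO arrays all lay above the treated arrays, and the 120 µM K and 120 µM mixture arrays were the lowest. The log2 fold change ran from -0.70 ± 0.14 with 60 µM G (adjusted p 0.00601) to -1.18 ± 0.14 with 120 µM K (adjusted p 3.44e-05), and lay at -0.91 ± 0.14 and -1.17 ± 0.14 with the mixtures. Pgk1 levels thus came to 0.441 to 0.616 of the controls, and these 6 calls held without any single array. With only the compared groups in the fit, Pgk1 with 60 µM G had an adjusted p of 0.0635.

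Eno1, the ubiquitous enolase, gave 16.21 and 16.41 with 0.05% DMSO and 16.29 and 16.12 with 0.1% DMSO. In the treated cells the signals were 15.64 and 15.38 with 60 µM G, 15.54 and 15.41 with 120 µM G, 15.50 and 15.72 with 60 µM K, 15.34 and 15.36 with 120 µM K, 15.48 and 15.57 with the 60 µM mixture and 15.12 and 15.28 with the 120 µM mixture. No treated array reached a DMSO array, and the log2 fold change lay between -1.0 and -0.67 with adjusted p of 3.21e-04 to 0.00722. Without 1 array the adjusted p rose to at most 0.0546 with 60 µM G, 0.0859 with 60 µM K and 0.0556 with the 60 µM mixture.

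Eno3, the enolase of muscle, showed the steepest fall among the glycolytic enzymes. Its signals were 9.82 and 9.45 with 0.05% DMSO and 8.97 and 8.31 with 0.1% DMSO, and after treatment the signals were 6.91 and 6.82 with 60 µM G, 6.47 and 6.03 with 120 µM G, 7.04 and 7.41 with 60 µM K, 6.44 and 6.85 with 120 µM K, 6.75 and 6.51 with the 60 µM mixture and 6.40 and 6.65 with the 120 µM mixture. Both arrays of 120 µM G and of the 120 µM mixture were at or below the negative control median, so their levels were at most 0.132 and at most 0.272 of the control, with fitted log2 fold changes of -3.39 (adjusted p 7.46e-07) and -2.11 (adjusted p 3.33e-05). Both arrays lay above that median with 60 µM G and 60 µM K, which left 0.146 and 0.187 of the control (log2 fold change -2.77 ± 0.24 and -2.42 ± 0.24, adjusted p 3.16e-05 and 2.21e-05). With 120 µM K and the 60 µM mixture only 1 of 2 arrays did, so the fitted log2 values of -2.99 ± 0.24 and -2.01 ± 0.24 (adjusted p 1.53e-06 and 6.82e-05) reach the limit of what the arrays could measure. In 0.1% DMSO against 0.05% DMSO, the value of Eno3 was -1.0 ± 0.24 (adjusted p 0.233), the only gene of the 34 with an unadjusted p under 0.05 between the solvents. Of 12 muscle markers, Ckm lay above the negative control median on all 16 arrays, at 6.85 to 7.48, and Tnnt3 on 3. The others, among them the muscle transcription factors Myod1, Myog, Myf5 and Pax7, lay above it on none. In a group 1 or 2 of the 12 lay above it, and the log2 of the summed muscle marker signal was 8.71 to 9.15 over all arrays.

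The remaining enzymes of this stretch moved less. Pkm, pyruvate kinase, fell with 120 µM G (-0.44 ± 0.12, adjusted p 0.0252) and the 120 µM mixture (-0.55 ± 0.12, adjusted p 0.00619), and all its treated arrays (16.12 to 16.51) lay below its DMSO arrays (16.63 to 16.76). Pgam1, phosphoglycerate mutase, had signals of 13.64 to 13.99 with DMSO and 13.05 to 13.65 after treatment, and fell with 60 µM G (-0.62 ± 0.16, adjusted p 0.0323) and 120 µM K (-0.72 ± 0.16, adjusted p 0.00667). Eno2, the enolase of neurons, rose with the 60 µM mixture (0.71 ± 0.23, adjusted p 0.0486). Each of these 5 calls was lost in at least 1 of the 16 fits that left out 1 array. Those of Pkm with 120 µM G and Pgam1 with 60 µM G were lost in 4 each. That of Eno2 was lost in 13, most of which left out an array outside its comparison. Its log2 value in the 16 fits ranged from 0.42 to 1.0. Gapdh, the enzyme just before Pgk1 and a control gene in the real-time PCR of the study, passed in no treatment: its signals lay between 16.42 and 16.88 on all 16 arrays and its log2 fold changes between -0.25 and -0.02, with 95% intervals of -0.54 to 0.05 for 120 µM K and -0.32 to 0.28 for the 60 µM mixture. With a trended and robust prior Gapdh passed with 120 µM K, at an adjusted p of 0.0491. Gapdh, Pgk1, Eno1, Ldha and Tpi1 have near-identical processed copies elsewhere in the mouse genome, and whether the probes separate these was not tested.

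The lactate dehydrogenase subunits moved in opposite directions in all 6 treatments. Ldha, the subunit that predominates in tissues that make lactate, gave 14.57 and 14.96 with 0.05% DMSO and 14.81 and 14.73 with 0.1% DMSO. With the compounds the signals were 13.49 and 13.44 with 60 µM G, 13.53 and 13.23 with 120 µM G, 13.34 and 13.73 with 60 µM K, 13.07 and 13.17 with 120 µM K, 13.20 and 13.39 with the 60 µM mixture and 12.97 and 13.08 with the 120 µM mixture. Every treated array lay below every DMSO array, and the lowest array was 1 of the 120 µM mixture. Ldha changed on the log2 scale by -1.30 ± 0.17 with 60 µM G, -1.38 ± 0.17 with 120 µM G, -1.23 ± 0.17 with 60 µM K, -1.65 ± 0.17 with 120 µM K, -1.47 ± 0.17 with the 60 µM mixture and -1.75 ± 0.17 with the 120 µM mixture, with adjusted p of 1.14e-05 to 5.55e-04. The level of Ldha was 0.298 to 0.426 of the control.

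Ldhb, the subunit that predominates in the heart, gave 8.25 and 8.17 with 0.05% DMSO and 7.85 and 8.15 with 0.1% DMSO. In the treated cells the signals were 9.45 and 9.28 with 60 µM G, 9.89 and 10.11 with 120 µM G, 10.06 and 9.85 with 60 µM K, 9.99 and 9.92 with 120 µM K, 10.32 and 10.16 with the 60 µM mixture and 10.18 and 10.00 with the 120 µM mixture. The 4 DMSO arrays lay below all treated arrays, and the 60 µM G arrays were the lowest of the treated. The fold change was 2.23 with 60 µM G, 3.46 with 120 µM G, 3.36 with 60 µM K, 3.35 with 120 µM K, 4.73 with the 60 µM mixture and 4.25 with the 120 µM mixture, with log2 values of 1.16 ± 0.15 to 2.24 ± 0.15 and adjusted p of 6.64e-07 to 5.37e-04. The calls of both subunits in all 6 treatments held without any single array, and the windows of both, shown above, contain matches to the HIF core.

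Of the regulators of the pathway, Pdk4 rose in all 6 treatments. It encodes a kinase that inhibits the pyruvate dehydrogenase complex and is known to rise in fasting. The signals of Pdk4 were 9.18 and 9.02 with 0.05% DMSO and 9.0 and 8.98 with 0.1% DMSO. With the compounds the signals were 10.51 and 10.34 with 60 µM G, 10.09 and 10.45 with 120 µM G, 11.46 and 11.36 with 60 µM K, 11.16 and 11.43 with 120 µM K, 11.19 and 11.07 with the 60 µM mixture and 11.13 and 11.11 with the 120 µM mixture. All K and mixture arrays lay above all G arrays, which in turn lay above all DMSO arrays. G raised Pdk4 2.51-fold at 60 µM and 2.25-fold at 120 µM, K 4.97-fold and 4.58-fold, and the mixtures 4.40-fold and 4.38-fold, with a log2 SE of 0.15, and the adjusted p lay between 4.77e-07 and 1.98e-04. Pdk1, the kinase of this family best known as a HIF target, fell with 60 µM K only, at 8.79 and 8.35 against 9.31 and 9.16 (-0.66 ± 0.19, adjusted p 0.0371, but 0.298 without replicate 2 of 60 µM K, and lost in 7 of the 16 fits that left out 1 array), and Pdk3 passed in none.

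Pfkfb3 and Pfkfb4 make and degrade the sugar bisphosphate that activates phosphofructokinase, and Pfkfb3 strongly favours its synthesis. The signals of Pfkfb3 were 8.93 and 9.08 with 0.05% DMSO and 9.14 and 9.16 with 0.1% DMSO. In treated cells the signals were 8.95 and 8.88 with 60 µM G, 8.13 and 8.16 with 120 µM G, 9.64 and 9.69 with 60 µM K, 9.41 and 9.56 with 120 µM K, 9.38 and 9.44 with the 60 µM mixture and 9.01 and 9.23 with the 120 µM mixture. The 120 µM G arrays lay below all others and the 60 µM K arrays above all others, while those of the 120 µM mixture fell on both sides of 0.1% DMSO. Pfkfb3 fell with 120 µM G (-0.85 ± 0.13, adjusted p 4.53e-04) and rose with K at 60 µM (0.66 ± 0.13, adjusted p 0.00504) and 120 µM (0.48 ± 0.13, adjusted p 0.0212). The mixtures gave 0.26 ± 0.13 and -0.03 ± 0.13 (adjusted p 0.197 and 0.921). Without 1 array the adjusted p of the rises reached at most 0.0535 and 0.140, whereas the fall with 120 µM G held without any single array. Pfkfb4 fell with 120 µM G only, at 6.94 and 6.6 against 7.59 and 7.42 (-0.74 ± 0.19, adjusted p 0.0146, and 0.144 without replicate 2 of 120 µM G).

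Among the 8 hypoxia-responsive genes, Ndrg1 with 120 µM K showed the deepest fall of all 34. Ndrg1 encodes a stress protein that low oxygen and iron chelation are known to induce. The signals of Ndrg1 were 11.85 and 11.52 with 0.05% DMSO and 11.53 and 11.31 with 0.1% DMSO. With either compound or both the signals were 10.20 and 10.14 with 60 µM G, 9.25 and 9.82 with 120 µM G, 9.33 and 9.24 with 60 µM K, 7.11 and 7.40 with 120 µM K, 9.23 and 9.03 with the 60 µM mixture and 8.41 and 8.39 with the 120 µM mixture. All treated arrays lay below all DMSO arrays, and 120 µM K was well below the rest, at 0.0463 of its control (log2 -4.43 ± 0.19, adjusted p 1.09e-08). Elsewhere the log2 fold change was -1.52 ± 0.19 with 60 µM G, -2.16 ± 0.19 with 120 µM G, -2.40 ± 0.19 with 60 µM K, -2.29 ± 0.19 with the 60 µM mixture and -3.02 ± 0.19 with the 120 µM mixture, with adjusted p of 2.18e-07 to 3.57e-04. These calls held without any single array.

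P4ha1, the catalytic subunit of the prolyl hydroxylase that modifies procollagen, fell with K and the mixtures but not with G. The signals of P4ha1 were 14.12 and 14.15 with 0.05% DMSO and 14.22 and 14.06 with 0.1% DMSO. In the same order of groups the signals were 14.14 and 14.26 with 60 µM G, 14.36 and 14.17 with 120 µM G, 12.94 and 12.94 with 60 µM K, 12.76 and 12.82 with 120 µM K, 13.55 and 13.62 with the 60 µM mixture and 13.52 and 13.66 with the 120 µM mixture. The K arrays were lowest, the mixture arrays intermediate, and the G arrays among or above the DMSO arrays. Relative to DMSO, the log2 values were -1.20 ± 0.13 with 60 µM K (adjusted p 5.14e-05), -1.35 ± 0.13 with 120 µM K (adjusted p 8.55e-06), -0.55 ± 0.13 with the 60 µM mixture (adjusted p 0.0103) and -0.55 ± 0.13 with the 120 µM mixture (adjusted p 0.00963). With G it was 0.06 and 0.13, with 95% intervals of -0.22 to 0.35 and -0.16 to 0.41. Leaving out 1 array raised the adjusted p of the mixtures to at most 0.0750 and 0.0881, and did not change the calls with K.

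Vegfa, the growth factor of blood vessels, rose in 5 treatments. The signals of Vegfa were 12.60 and 12.58 with 0.05% DMSO and 12.76 and 12.49 with 0.1% DMSO. In treated cells the signals were 12.87 and 12.63 with 60 µM G, 13.26 and 13.05 with 120 µM G, 13.42 and 13.26 with 60 µM K, 13.90 and 13.51 with 120 µM K, 13.48 and 13.50 with the 60 µM mixture and 13.41 and 13.54 with the 120 µM mixture. Only the 60 µM G arrays overlapped with the DMSO arrays. The fold change was 1.12 with 60 µM G (adjusted p 0.634), 1.48 with 120 µM G (adjusted p 0.0307), 1.68 with 60 µM K (adjusted p 0.00923), 2.16 with 120 µM K (adjusted p 2.83e-04), 1.83 with the 60 µM mixture and 1.81 with the 120 µM mixture (adjusted p 0.00229 and 0.00219). Without 1 array the adjusted p rose to at most 0.188 with 120 µM G and 0.0891 with 60 µM K, and the other 3 calls held.

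Hif1a, the oxygen-regulated subunit of HIF, whose protein rather than transcript is the main point of control, had signals of 15.78 and 15.69 with 0.05% DMSO and 15.83 and 15.76 with 0.1% DMSO. After treatment its 12 signals lay between 15.73 and 16.18, and the K arrays and the mixture arrays lay above all DMSO arrays. The log2 fold changes were 0.29 ± 0.13 and 0.32 ± 0.13 with 60 and 120 µM K (adjusted p 0.221 and 0.137) and 0.05 to 0.09 otherwise, and none passed. With K the call depended on the processing: at 120 µM the adjusted p was 0.0476 among clusters above the median signal, 0.0251 among those above the negative controls and 0.0118 with a trended and robust prior, and at 60 µM it was 0.0496 and 0.0293 in the last 2 of these. Bnip3, a mitophagy receptor, fell with the 60 µM mixture, at 8.68 and 8.22 against 8.89 and 9.10 (-0.54 ± 0.17, adjusted p 0.0366, and 0.319 without replicate 2 of that mixture). Car9, a carbonic anhydrase, Egln3, a hydroxylase that marks HIF for destruction, and Ankrd37, an ankyrin repeat protein, passed in no treatment and were at or near background. Of the 2 clusters of Egln3, the rule took the brighter, which is annotated to a cDNA clone, and not the dimmer one annotated to the RefSeq transcript, so its values are those of the former. The identifier of the brighter cluster names another chromosome than that of the Egln3 promoter window. Whether this cluster measures Egln3 was not tested.

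**Figure D2:**
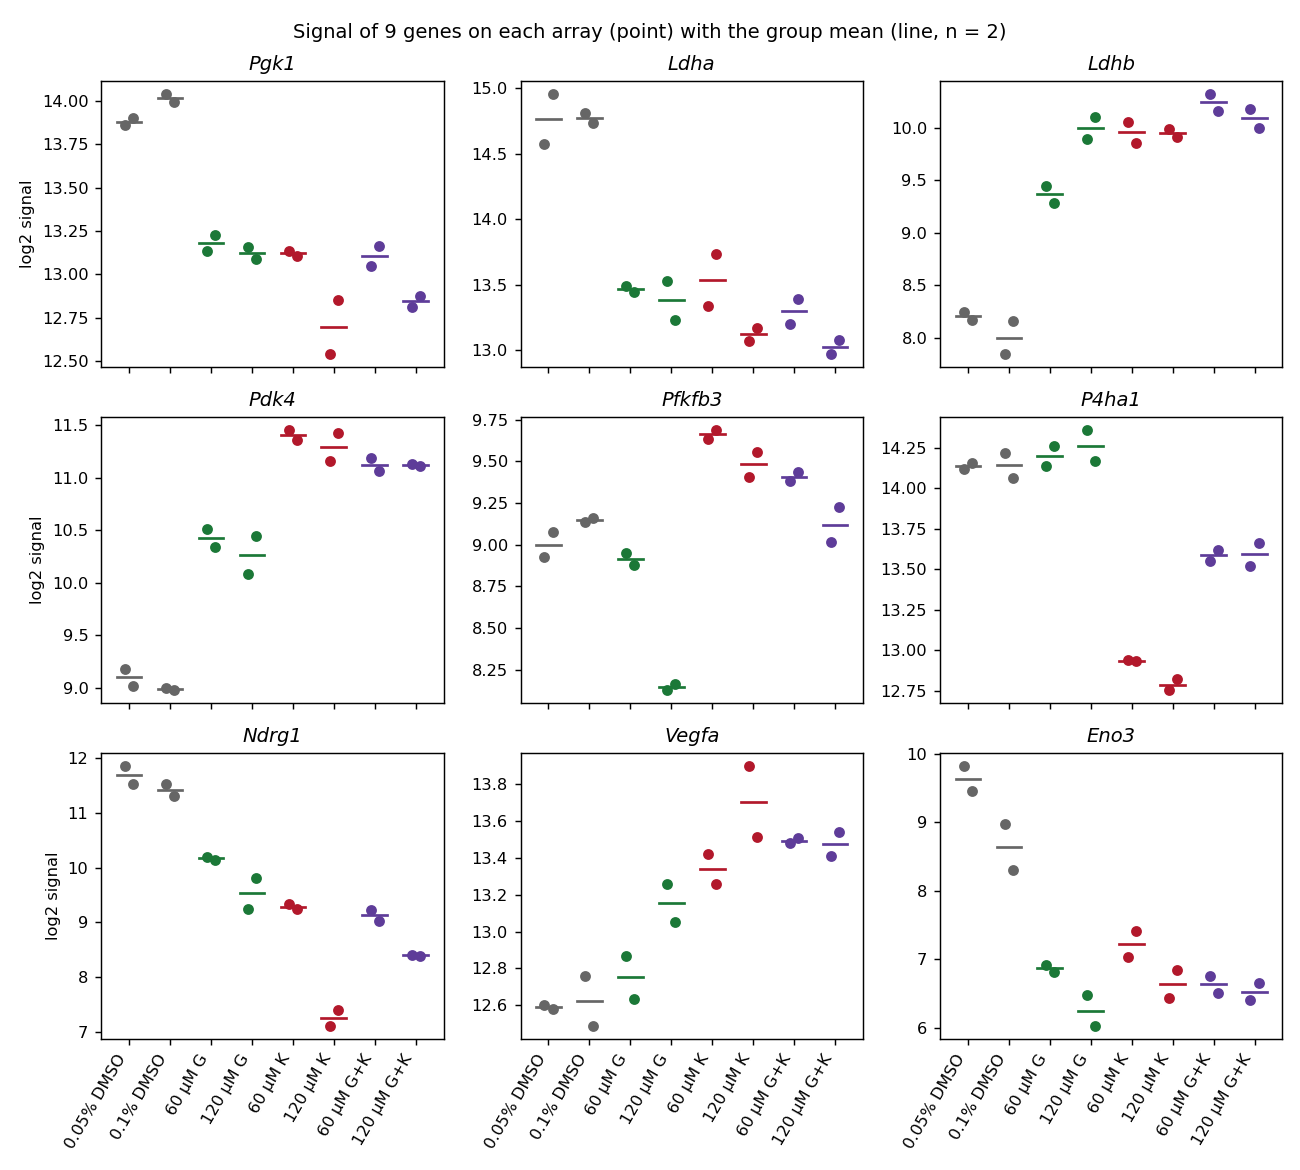
Log2 signal of 9 of the genes (y axes, each with its own range) on each of the 16 arrays (points), with the mean of each group of 2 (lines), for the 8 groups along the x axis. Ldha and Pgk1 were below, and Ldhb and Pdk4 above, the 4 DMSO arrays (grey) in every treatment, and P4ha1 was lowest with K.

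K and G were compared at matched concentrations. Genistein is an isoflavone and kaempferol a flavonol, which carry the phenol ring on neighbouring carbons of the same core, and kaempferol bears a further hydroxyl group. At 60 µM, 6 of the 34 genes were higher with K (against 4.78% of all clusters) and 4 lower (against 3.39%). At 120 µM, 3 were higher (against 5.21%) and 3 lower (against 4.57%). In either direction, 10 and 6 genes passed, against 8.17% and 9.78%. Pfkfb3, Pdk4 and Vegfa stood higher with K, and Pfkm, Ndrg1 and P4ha1 lower, at both concentrations. P values were adjusted over all clusters of each comparison, and these were 2 comparisons of 1 pair of compounds.

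P4ha1 was lower with K than with G by -1.26 ± 0.13 on the log2 scale at 60 µM (adjusted p 6.70e-05) and -1.47 ± 0.13 at 120 µM (adjusted p 1.10e-05). Ndrg1 was lower by -0.89 ± 0.19 (adjusted p 0.0116) and -2.27 ± 0.19 (adjusted p 5.67e-06). Pfkfb3 was higher with K by 0.75 ± 0.13 (adjusted p 0.00328) and 1.33 ± 0.13 (adjusted p 2.16e-05). No array of 1 compound overlapped with the other for these 3 genes at either concentration. Pdk4 was higher by 0.99 ± 0.15 (adjusted p 0.00145) and 1.03 ± 0.15 (adjusted p 7.15e-04), a fold of 1.98 and 2.04. The other genes passed with smaller values. At 60 µM these were Hk2 (0.89), Slc2a1 (0.66), Ldhb (0.59), Vegfa (0.59), Pdk1 (-0.66) and Pfkm (-0.62), and at 120 µM Vegfa (0.55) and Pfkm (-0.45). All of these, and Ndrg1 at 60 µM, lost the call in at least 1 of the 16 fits that left out 1 array. At 60 µM the call was lost in 14 fits for Pdk1, 10 for Vegfa and 8 for Slc2a1. It was lost in 4 each for Hk2, Pfkm, Ldhb and Ndrg1. At 120 µM it was lost in 14 for Pfkm and 13 for Vegfa. Leaving out any 1 of the 16 arrays lowered the number of genes called at 60 µM, from 10 to between 3 and 9.

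For Ldha, Tpi1, Eno1 and Pgk1, which fell in all treatments, no difference between K and G passed the test. The 95% interval of K minus G on the log2 scale was -0.31 to 0.44 at 60 µM and -0.63 to 0.11 at 120 µM for Ldha, -0.22 to 0.49 and -0.52 to 0.19 for Tpi1, and -0.22 to 0.42 and -0.44 to 0.20 for Eno1. That of Pgk1 was -0.35 to 0.23 at 60 µM, and -0.72 to -0.13 at 120 µM with an adjusted p of 0.0658. Differences of the size seen for P4ha1 and Pdk4 lay outside these intervals, but smaller ones were within them. Over all genes that did not pass, the intervals reached from -1.20 to 1.21 at 60 µM and from -1.80 to 0.95 at 120 µM, with Egln3, a gene near background, at the lower end of both.

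**Figure D3:**
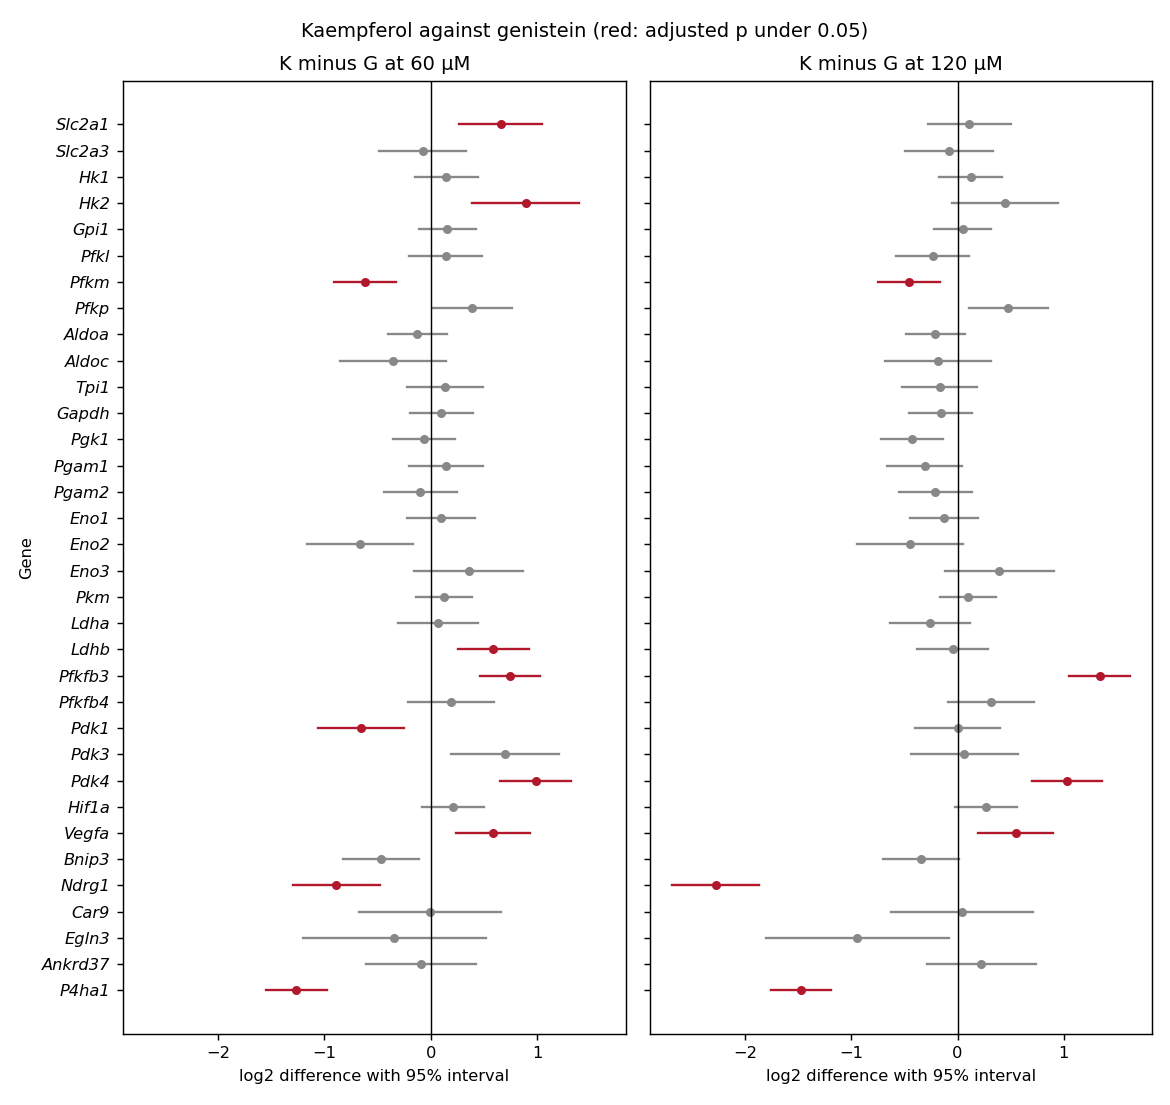
Log2 difference K minus G (x axis, the same range in both panels) of the 34 genes (y axis) at 60 µM and 120 µM, with 95% intervals from limma's fit and n = 2 arrays per group, red where the adjusted p was under 0.05. P4ha1 and Ndrg1 lie to the left and Pfkfb3 and Pdk4 to the right in both panels.

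Few of these genes passed between the 2 concentrations, while 8 had an unadjusted p under 0.05 for G and 6 for K. From 60 to 120 µM G, 1 gene rose (against 1.57% of all clusters) and 1 fell (against 1.98%). The 2 genes (against 3.54% in either direction) were Ldhb (0.63 ± 0.15, adjusted p 0.0392, and 0.198 without replicate 2 of 60 µM G) and Pfkfb3 (-0.77 ± 0.13, adjusted p 0.00510). The call of Ldhb was lost in 10 of the 16 fits that left out 1 array, those without a 60 or 120 µM G array, a mixture array or a 0.05% DMSO array, and Pfkfb3 kept its call in all, but neither passed with only the compared groups in the fit (adjusted p 0.159 for Ldhb and 0.0820 for Pfkfb3). From 60 to 120 µM K none rose (against 0.0405%) and only Ndrg1 fell (against 0.23%, and 0.27% in either direction), by a further -2.03 ± 0.19 on the log2 scale (adjusted p 3.54e-04), and this held without any single array. Between the mixtures 0 genes passed in limma's test, as over all clusters (against 0%), and 4 had an unadjusted p under 0.05. The difference between the concentration steps of G and K passed for 0 of the 34 (against 0.0315%, 4 with an unadjusted p under 0.05), including Ndrg1 (1.39 ± 0.27, adjusted p 0.0916).

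The mixtures were also compared with each compound at the same total concentration. Against 60 µM G, the 60 µM mixture was higher on 6 genes (against 4.18%) and lower on 2 (against 3.17%), 8 in all (against 7.35%). The 5 largest were Ndrg1 (-1.05), Pdk3 (0.89), Ldhb (0.88), Slc2a1 (0.84) and Vegfa (0.74), and only Ldhb kept its call (adjusted p 0.00433) without any single array. The count was 3 without replicate 2 of 60 µM G, 4 without replicate 1 and 1 without replicate 2 of the mixture. Against 120 µM G, the 120 µM mixture was higher on Pfkfb3 (0.97 ± 0.13, adjusted p 3.86e-04) and Pdk4 (0.85 ± 0.15, adjusted p 0.00332), 2 genes against 4.53%. It was lower on Ndrg1 (-1.13 ± 0.19, adjusted p 0.00201) and P4ha1 (-0.67 ± 0.13, adjusted p 0.00614), 2 genes against 2.8%, of which P4ha1 had an adjusted p of up to 0.0795 without 1 array. These were 4 differences (against 7.33% in either direction), from a comparison that shares the 120 µM G arrays with that of 120 µM K against G.

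Against K fewer genes passed, as also held over all clusters, so these counts do not measure how near the mixtures lay to K. The 60 µM mixture differed from 60 µM K on 0 genes in limma's test (against 0.0901%, 5 with an unadjusted p under 0.05), with P4ha1 at 0.65 ± 0.13 (adjusted p 0.106). From 60 µM G the 60 µM mixture differed on P4ha1 by -0.61, which passed (adjusted p 0.0138). The 120 µM mixture was higher than 120 µM K on 2 genes (against 0.432%), Ndrg1 (1.14 ± 0.19, adjusted p 0.0150) and P4ha1 (0.80 ± 0.13, adjusted p 0.0148). Both calls were lost without replicate 1 of 120 µM K or either array of the mixture, with an adjusted p of up to 0.161 and 0.174. P4ha1 and Ndrg1 thus lay between 120 µM G and 120 µM K with the 120 µM mixture, differing from both in the fit with all arrays. The solvents differed on 0 of the 34 genes (against 0.0045%, 1 with an unadjusted p under 0.05).

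The 120 µM mixture holds 60 µM of each compound, so its log2 change can be set against the sum of those of 60 µM G and 60 µM K. Of the 34 genes only Eno3 passed in limma's test of the difference from the sum, against 0.0405% of all clusters in either direction and 0.018% above it. With Eno3 included, 10 of the 34 had an unadjusted p under 0.05. The median difference from the sum was 0.30 for the 34 genes and -0.02 for all clusters. Eno3 lay above the sum by 3.07 ± 0.48 on the log2 scale (adjusted p 0.0459). The level expected from the sum was 3.45, below the negative control medians of 6.70 to 6.83 on the 2 arrays, and the measured mean was 6.53. The call was lost in 15 of the 16 fits that left out 1 array, with an adjusted p of up to 0.198. For the other 33 genes the difference from the sum ran from -1.51 to 0.97, and its 95% intervals reached from -2.57 to 2.52. A lack of a call is thus no sign that these changes add up.

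The study took a fold change above 1.3 or below 0.7 as regulated, and this criterion was also applied here, without a test. By it, 16 of the 34 genes stood apart from DMSO with 60 µM G (against 20.3% of all clusters), 15 with 120 µM G (against 24%), 14 with 60 µM K (against 19.2%), 14 with 120 µM K (against 25.3%), 16 with the 60 µM mixture (against 27.2%) and 16 with the 120 µM mixture (against 28.5%). K and G differed on 13 at 60 µM (against 19.6%) and 9 at 120 µM (against 19.4%). The G doses differed on 9 (against 15.4%), the K doses on 3 (against 9.06%) and the mixtures on 3 (against 4.68%). The mixtures differed from G on 13 and 7 (against 19.8% and 16.1%) and from K on 5 and 3 (against 7.35% and 10.5%). The solvents alone differed on 4 (against 9.34%). The comparison with the sum gave 20 (against 35.5%) and that of the dose steps 9 (against 23.1%), and both are made from more than 2 group means, which widens their error.

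Genes of neighbouring pathways were counted in the same way. Depending on the treatment, 3.84% to 10.1% of all clusters rose and 4.4% to 9.48% fell. Against these shares, 0 to 3 of 19 further glycolytic and gluconeogenic enzymes rose and 1 to 3 fell in a treatment. Pck2, the mitochondrial enzyme that makes phosphoenolpyruvate, fell with 60 and 120 µM G (-0.96 and -1.35, adjusted p 0.00413 and 1.01e-04) and rose with 60 and 120 µM K (0.60 and 0.76, adjusted p 0.0427 and 0.00733) and with the mixtures (0.62 and 0.80, adjusted p 0.0238 and 0.00505). K minus G was 1.56 at 60 µM and 2.11 at 120 µM (adjusted p 1.10e-04 and 5.12e-06). Gpd1, a glycerol phosphate dehydrogenase, rose with 120 µM G (0.70, adjusted p 0.0301) and fell with the 120 µM mixture (-0.62, adjusted p 0.0469), and 3 more passed in 1 treatment each, Adpgk with the 60 µM mixture (0.58), Pfkfb1 with 120 µM G (-0.91) and Hkdc1 with the 120 µM mixture (-0.81). Chosen after their values were seen, Gpd2, the mitochondrial glycerol phosphate dehydrogenase, fell with K and the mixtures (-0.75, -0.63, -0.63 and -0.69, adjusted p 0.0287 to 0.0482), and Pfkfb2 rose at 120 µM of either compound and with the 60 µM mixture (0.51, 0.53 and 0.52, adjusted p 0.0222 to 0.0288). Of 8 further transporters of the family, Slc2a9, a urate transporter, rose in all 6 treatments, from 1.48 with 60 µM K (adjusted p 3.83e-04) to 2.95 with 120 µM G (adjusted p 7.43e-07). Slc2a10 fell with both compounds, by log2 fold changes of -1.23, -1.06, -0.81 and -0.95 in the order used above, and gave -0.26 and -0.38 with the mixtures. Of 11 genes of the pyruvate dehydrogenase complex and pyruvate entry, 0 to 2 rose (against 3.84% to 10.1%) and 0 or 1 fell (against 4.4% to 9.48%). Pdp2, a phosphatase that reactivates the complex, rose with 120 µM K (0.84, adjusted p 0.00388), Dlat with 120 µM G (0.51, adjusted p 0.0106) and Pdk2 with the 120 µM mixture (0.61, adjusted p 0.0250). Pdha1, a catalytic subunit of the complex, fell with both mixtures (-0.78 and -0.62, adjusted p 0.00704 and 0.0228).

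The pentose phosphate pathway takes glucose phosphate off glycolysis to make reducing power and ribose. Of 8 enzymes of this pathway, none passed with 60 µM G (against 8.32% of all clusters). With 60 µM K 5 rose (G6pdx, Pgls, Pgd, Tkt and Taldo1, against 5.72%). With 120 µM G 3 rose (H6pd, Pgd and Taldo1, against 7.94%). G6pdx, Pgd and Taldo1 rose with 120 µM K (against 8.98%) and with each mixture (against 9.23% and 10.1%), while H6pd fell with 120 µM K (against 8%). Pgd, which releases carbon dioxide in this pathway, rose by 2.02 and 2.18 with K and 2.29 and 2.22 with the mixtures on the log2 scale (adjusted p 3.24e-07 to 1.65e-06). K minus G for Pgd was 1.68 and 1.28 at 60 and 120 µM (adjusted p 1.42e-05 and 7.64e-05). G6pdx, the entry enzyme, rose by 0.88 and 1.09 with K (adjusted p 0.00243 and 2.65e-04) and lay at -0.01 and 0.05 with G, a difference of 0.90 and 1.04 (adjusted p 0.00355 and 8.23e-04). Taldo1, transaldolase, rose by 1.34 and 1.48 (adjusted p 1.14e-04 and 2.38e-05). The median log2 fold change of the 8 enzymes was 0.07 with 60 µM G, 0.18 with 120 µM G, 0.51 with 60 µM K, 0.32 with 120 µM K, 0.35 with the 60 µM mixture and 0.27 with the 120 µM mixture, where that of all clusters lay between -0.04 and 0.01.

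Of 30 further hypoxia-responsive genes, 3 to 5 rose in a treatment (against 3.84% to 10.1% of all clusters) and 5 to 7 fell (against 4.4% to 9.48%). Ddit4, a stress-induced inhibitor of growth signalling, rose in all 6, by 1.73 and 2.62 with G, 1.86 and 2.31 with K and 1.77 and 1.86 with the mixtures (adjusted p 9.60e-07 to 1.44e-04). Plod1, a collagen lysyl hydroxylase, and Stc2, a secreted glycoprotein, fell in all 6, by -1.11 to -0.62 and -1.28 to -0.78 respectively (adjusted p 8.17e-04 to 0.0463 and 0.00134 to 0.0246). Plod2, another lysyl hydroxylase, rose with 60 and 120 µM G (0.78 and 1.18, adjusted p 0.00819 and 1.50e-04) and the 120 µM mixture (0.50, adjusted p 0.0410). Mxi1, an antagonist of Myc, rose in all treatments but 60 µM G, by 0.60 to 0.85 (adjusted p 6.86e-04 to 0.0103). Tmem45a, a transmembrane protein, fell in the same 5 treatments, by -1.70 to -1.19 (adjusted p 1.22e-04 to 0.00203). Also named after their values were seen, Adm, a vasodilator peptide, fell in 4 treatments, by -0.99 with 120 µM G to -0.45 with the 60 µM mixture (adjusted p 2.52e-04 to 0.0430), and Bnip3l, a mitophagy receptor, rose in 4, by 0.45 with the 60 µM mixture to 0.70 with 120 µM G (adjusted p 0.00316 to 0.0369). Of 10 genes of the HIF machinery, 0 to 2 rose (against 3.84% to 10.1%) and 0 to 2 fell (against 4.4% to 9.48%). Arnt, the constant partner of the HIF subunits, rose with the 120 µM mixture (0.55, adjusted p 0.0224), while Arnt2, its paralogue, fell and Cited2, which competes with HIF for a coactivator, rose with 120 µM G (-0.86 and 0.53, adjusted p 0.00251 and 0.0237). Vhl, which marks hydroxylated HIF for destruction, rose in 5 treatments, by 0.57 to 0.90 (adjusted p 0.00115 to 0.0229), and lay at 0.39 with 60 µM G. Egln1, the main HIF hydroxylase, fell with 120 µM G (-0.52, adjusted p 0.0236) and both mixtures (-0.67 and -0.76, adjusted p 0.00553 and 0.00218).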

How the data were processed

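RNA of MPS I tail-skin fibroblasts was hybridised by the authors to Clariom S mouse arrays, and the deposited values are log2 signals per transcript cluster, for which the sources name the Affymetrix Expression Console and the Transcriptome Analysis Console. The deposited column names carry the tag of the signal space transformation form of robust multiarray averaging (RMA). Tool versions, the build of the array annotation and probe filters were not given in the sources used here, so no array coordinates are printed. The array has 22206 transcript clusters that are not control probe sets, and the number of arrays, 2 per group, limits the precision: the median SE of a log2 difference was 0.19, a 95% half-width of 0.40. The methods of the study name 3 samples per group, and 2 per group were analysed here. The labels give 0.05% DMSO for all treated samples and the methods 0.1% for the mixtures, which were therefore compared with 0.1% DMSO. With the solvents exchanged, 73 of 79 calls against DMSO were kept in limma's test. Eno2 and Bnip3 with the 60 µM mixture (adjusted p 0.288 and 0.123) and Hk1 with the 120 µM mixture (0.0775) lost theirs. So did Pgam1 with 60 µM G (0.156) and Aldoa and Pfkfb3 with 120 µM K (0.130 and 0.0978).

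The log2 values were used as deposited. A model with 1 mean per group over all 16 arrays was fitted with limma 3.58.1 in R 4.3.3 (lmFit, eBayes, 2-sided), with Benjamini-Hochberg adjustment over all 22206 clusters in each of 18 comparisons, and an adjusted p under 0.05 was the threshold. The fold criterion of the study (above 1.3 or below 0.7), applied without a test, was an alternative. The 34 genes, the marker lists and the pathway lists were chosen with earlier results of these data known. The genes named were, per role, up to 4 that passed in a treatment, by absolute log2 change, with Gapdh and Hif1a; up to 5 per comparison between treatments; and up to 3 per direction of each pathway list. Others were named after their values were seen. A gene of the pathway lists that met this rule is not reported here. Where both arrays of a group were not well above background, a level is a bound set with the negative control median of each array.

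Alternatives were other control arrays, a fit on the compared groups alone, median centring, quantile normalization, 2 filters on dim clusters, a trended and robust prior, the replicate number as a block, the authors' second deposited table of the same values, the other cluster of Egln3, and leaving out each array. Promoter windows came from RefSeq (GRCm38.p6); Slc2a3 and Ndrg1 had none.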

Additional observations from a re-analysis of the deposited data

Results flagged for a closer look

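The log2 change of Eno3 with the 120 µM mixture lay 3.07 above the sum of the changes with 60 µM G and 60 µM K, the only one of the 34 genes for which a test of this difference passed (limma, adjusted p 0.0459). The sum implies a level of 3.45, below the negative control medians of 6.70 to 6.83 on these arrays, and the measured mean was 6.53. Leaving out 1 array gave an adjusted p of up to 0.198, and the call was lost in 15 of 16 such fits. The part of the background level in this value was not tested beyond these numbers.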

How the results depend on the processing

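Several counts of the 34 genes called moved with the processing, and smaller shifts of a count are not listed here. With only the compared groups in the fit, 39 of 113 called values lost their call and 74 kept it. Among the losses were all calls of Hk1 and Pkm against DMSO and those of P4ha1 with both mixtures. Those of Eno1 and Pfkp with 60 µM G were also lost. In these fits 6 genes were called with 60 µM G, 5 between K and G at 60 µM and 0 between the G doses. The 60 µM mixture against 60 µM G gave 3, the 120 µM mixture against 120 µM K gave 0, and the comparison with the sum gave 0. Quantile normalization gave 6 between K and G at 60 µM and 1 between the G doses. Keeping 11103 clusters above the median signal left 29 genes and gave 4 between the G doses, 1 between the 60 µM mixture and 60 µM K, 2 against the sum and 1 for the difference of dose steps, as did the trended robust prior (4, 1, 2 and 1). Keeping 6054 clusters above the negative controls left 19 of the 34 genes, whose 82 called values all kept their calls, and gave 6 between K and G at 60 µM, the 4 others (Hk2, Ldhb, Pfkfb3 and Pdk1) being filtered out, 2 between the K doses, 1 between the 60 µM mixture and 60 µM K, and 1 for the dose steps. The fold criterion without a test gave 9 between the G doses, 3 between the K doses, 3 between the mixtures, 13 and 7 for the mixtures against 60 and 120 µM G, 5 between the 60 µM mixture and 60 µM K, 4 between the solvents, 20 against the sum and 9 for the dose steps. Hif1a with K and Gapdh with 120 µM K passed under some of these settings, as given above. Apart from the filters, which test fewer genes, the causes were not tested.

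Leaving out 1 array gave 8 to 13 genes for 60 µM G, 10 to 14 for 120 µM G, 8 to 12 for 60 µM K, 11 to 15 for 120 µM K, 9 to 14 for the 60 µM mixture and 10 to 15 for the 120 µM mixture. It gave 3 to 9 and 4 to 6 for K against G at 60 and 120 µM, 1 to 2 between the G doses, 1 between the K doses, 1 to 9 and 3 to 5 for the mixtures against 60 and 120 µM G, 0 to 2 for the 120 µM mixture against 120 µM K and 0 to 1 against the sum. Of 113 called values, 63 kept their call in every such fit and none changed sign.

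Replicate numbers did not pair the arrays (correlations of deviations from -0.14 to 0.14, median 0.01). With the replicate block 12, 14, 12 and 15 genes were called with 60 and 120 µM G and K, 12 and 14 with the mixtures and 0 against the sum, and Eno2 (adjusted p 0.0585) and Eno3 against the sum (0.0742) lost their calls in limma's test.

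Values near 0 that no test called changed sign. With the solvents exchanged, Gapdh was 0.069 with 120 µM G and 0.017 with 60 µM K, and Hif1a was -0.0091 with 120 µM G. Median centring gave Gapdh 0.031 with the 60 µM mixture. Leaving out 1 array gave -0.0022 to 0.17 for Hif1a with 60 µM G, -0.0061 to 0.10 for Hif1a with 120 µM G, -0.18 to 0.0058 for Gapdh with 120 µM G and -0.092 to 0.052 for Gapdh with the 60 µM mixture. Slc2a3, Aldoc and Pgam2, not well above background in any group, limit what the arrays can show.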
